A study of Homo sapiens with 14 samples.

Results

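The comparison set 3 libraries of Jurkat cells carrying *KSR2* guide 2 against 3 libraries carrying *KSR2* guide 1, which are 6 of the 14 libraries of the series, chosen by their labels alone. Jurkat is an established human line of T-cell acute lymphoblastic leukaemia that expresses the transcription factor TAL1. All groups are of this line, and polyadenylated RNA was sequenced. A non-targeting guide (NT, 2 libraries) is the control of both guides, and 3 libraries given DMSO and 3 given the KSR inhibitor APS-2-79 (KSRi) complete the series. How *KSR2* was lowered is not settled by the labels: knockout by CRISPR in the titles, CRISPR interference in the design text, and a hairpin in the names of the NT libraries. Whether each guide group was a clone or a pool, how long the cells were cultured with the guide, and which sequences the guides have, is information not given in the sources used here. Separate cultures are not stated for the replicates, and p-values therefore reflect the spread between these libraries alone, which may be technical.

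KSR2 is a scaffold that holds the kinases RAF, MEK and ERK together and so helps a signal from RAS pass down the cascade. A guide RNA directs a CRISPR enzyme to a matching stretch of DNA, and it can also act at other places that resemble its target. Guides of unlike sequence aimed at 1 gene share that target but not their other sites, which is the question a comparison of guides addresses. GNPNAT1 is the acetyltransferase of the hexosamine pathway, which turns fructose 6-phosphate into UDP-N-acetylglucosamine. That sugar nucleotide feeds N-linked glycans, GPI anchors and the O-GlcNAc mark on nuclear and cytosolic proteins.

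The start regions of 3 genes are shown because *KSR2* is the target, *GNPNAT1* was called between the guides, and *CAMSAP1-DT* was the next by p-value. Each is the 250 bases before the RefSeq start (GRCh38.p14), written 5′ to 3′ on the strand of the gene. They lie at chr12:117968991-117969240 (minus strand) for *KSR2*, chr14:52791608-52791857 (minus strand) for *GNPNAT1* and chr9:135907583-135907832 (plus strand) for *CAMSAP1-DT*. Capitals mark GG, the fixed bases of NGG, the motif that the commonly used Cas9 enzyme needs beside its target. Only the printed strand is marked, and motifs of the other strand, which read CC here, are not. The enzyme used here is not named in the labels.
KSR2: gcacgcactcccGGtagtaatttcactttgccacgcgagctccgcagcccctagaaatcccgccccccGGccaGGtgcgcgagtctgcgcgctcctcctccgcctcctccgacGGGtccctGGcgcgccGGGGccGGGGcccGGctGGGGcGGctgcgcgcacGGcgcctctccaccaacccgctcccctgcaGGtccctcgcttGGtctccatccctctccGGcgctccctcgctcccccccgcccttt
GNPNAT1: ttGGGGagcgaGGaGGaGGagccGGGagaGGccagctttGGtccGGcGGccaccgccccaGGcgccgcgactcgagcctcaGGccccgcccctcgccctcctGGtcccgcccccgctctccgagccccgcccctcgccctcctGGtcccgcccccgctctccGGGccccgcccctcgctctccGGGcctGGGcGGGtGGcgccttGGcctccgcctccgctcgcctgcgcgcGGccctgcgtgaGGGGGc
CAMSAP1-DT: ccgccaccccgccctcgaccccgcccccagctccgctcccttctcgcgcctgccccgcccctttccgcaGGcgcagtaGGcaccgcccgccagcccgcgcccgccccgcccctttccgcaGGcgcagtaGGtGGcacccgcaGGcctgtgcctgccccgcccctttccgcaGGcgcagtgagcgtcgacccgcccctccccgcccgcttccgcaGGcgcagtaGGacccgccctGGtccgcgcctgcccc
Counted on both strands, with overlaps allowed, NGG occurred 72 times in the *KSR2* window, 89 times in the *GNPNAT1* window and 80 times in the *CAMSAP1-DT* window. Of these, 21, 31 and 10 were on the printed strand. All windows of this length hold it (100% of 35114), with a median of 48 and a 5th to 95th percentile range of 16 to 82. The windows had a GC content of 74.0%, 80.8% and 79.2%, against a median of 58.0% over all windows. With no guide sequence at hand, these letters give the place of each start and say nothing of where either guide binds.

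Depth and T-lineage markers overlapped between the guide groups. Library totals were 33919545 to 38801454 counts with guide 1 and 29979565 to 42717502 with guide 2 (exact permutation test, two-sided p = 0.9, where 3 against 3 libraries cannot give less than 0.1). Mitochondrially encoded transcripts made up 2.02% ± 0.313 (SD, n = 3) of counts with guide 1 and 1.78% ± 0.816 (n = 3) with guide 2 (exact permutation p = 0.7), and this share ranged from 1.15% to 2.71% among the guide 2 libraries. Of 20 genes of the T lineage all exceeded 1 CPM (counts scaled to library size, with TMM factors), and their summed level was 3183 to 3561 CPM with guide 1 and 3385 to 3501 CPM with guide 2. *TAL1* stood at 356 CPM with guide 1 and 367 CPM with guide 2. Marker sums were at most 0.569 CPM for 8 myeloid genes, 0.58 CPM for 5 epithelial genes and 0.0532 CPM for 6 erythroid genes, with *CSF1R*, *EPCAM*, *KRT19*, *HBB* and *PAX5* at 0 counts in all 6 libraries. Of the B-cell and vascular markers, *CD79A* (53.7 and 52.2 CPM) and *PECAM1* (78.7 and 87.0 CPM) were present in both groups and also in NT, as was the scarcer *COL1A1* (7.85 and 6.59 CPM). The summed level of 8 fibroblast and endothelial markers, nearly all *PECAM1*, was 80.7 to 92.1 CPM with guide 1 and 92.3 to 97.1 CPM with guide 2, with *COL3A1* and *CDH5* at 0, and its part in the results was not tested.

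A single gene, *GNPNAT1*, was called between the guides, and it was lower with guide 2. *GNPNAT1* (ENSG00000100522; chromosome 14, 52775194 to 52791668, minus strand, GRCh38) stood at 55.0, 48.7 and 53.2 CPM in the guide 1 libraries and at 22.4, 22.9 and 26.6 CPM in the guide 2 libraries. The NT libraries stood at 50.8 and 51.3 CPM. All guide 2 libraries were thus below every guide 1 and NT library, with a wide gap, and guide 1 lay on both sides of NT. The guide 2 level was 45.9% of the guide 1 level, a log2 difference of −1.12 (SE 0.09, 95% interval −1.30 to −0.94, edgeR quasi-likelihood adjusted p = 6.40e-06). These values rest on 1829 to 2322 counts per guide 1 library and 735 to 1213 per guide 2 library. Against NT, *GNPNAT1* changed by −1.09 with guide 2 (SE 0.09, edgeR adjusted p = 2.09e-05) and by 0.04 with guide 1 (SE 0.09, edgeR adjusted p = 0.98). Those contrasts share the NT libraries, and the difference between them is the comparison of the guides itself. In the remaining groups *GNPNAT1* stood at 106 to 109 CPM with DMSO and at 74.9 to 90.4 CPM with KSRi, so the guide 2 libraries were the lowest of all 14. The NT and guide 1 libraries also lay below every DMSO and KSRi library. The DMSO and KSRi levels therefore add nothing to the comparison of the guides. In bulk RNA, fewer cells with the transcript and less of it per cell cannot be told apart.

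**Figure D1:**
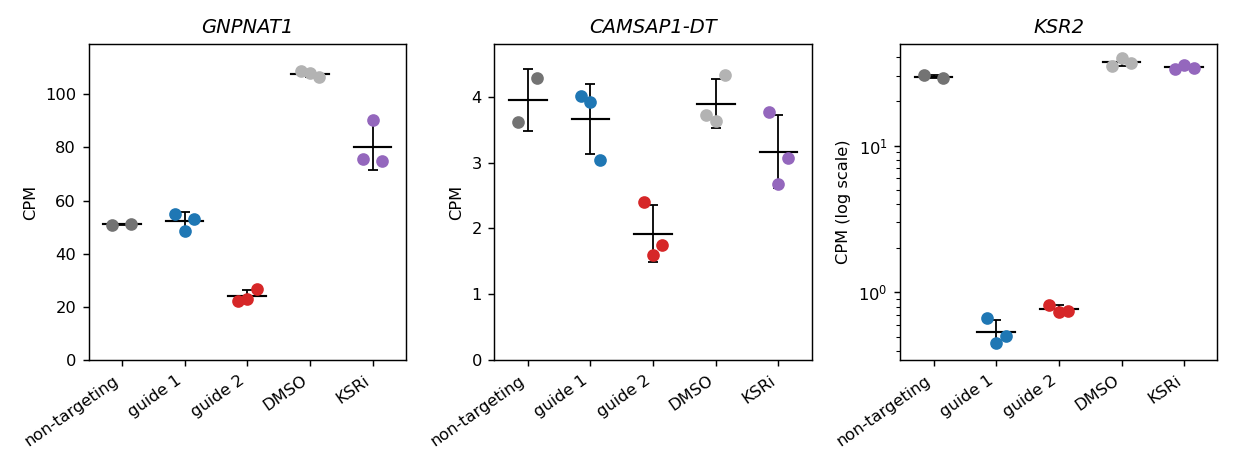
Levels of *GNPNAT1*, *CAMSAP1-DT* and *KSR2* in CPM (vertical axes, logarithmic for *KSR2*) in each of the 14 libraries by group, where points are libraries, the wide bar is the group mean and the error bar the SD. The 3 guide 2 libraries lie at 22.4 to 26.6 CPM for *GNPNAT1*, below all others, while *KSR2* is under 1 CPM with either guide.

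The target itself was scarce with either guide. *KSR2* (ENSG00000171435; chromosome 12, 117453012 to 117968983, minus strand) had 28, 17 and 21 counts in the guide 1 libraries and 27, 28 and 34 in the guide 2 libraries, or 0.664, 0.453 and 0.507 CPM and 0.822, 0.730 and 0.746 CPM. The NT libraries had 831 and 1095 counts, or 30.1 and 28.97 CPM. Every guide 2 library was above every guide 1 library, though all were far below NT. The log2 difference between the guides was 0.49 (SE 0.18, 95% interval 0.11 to 0.86), and it was not called (unadjusted p = 0.0373, edgeR adjusted p = 1). For so few counts edgeR raises p to that of counting error alone, so the SE and interval, which come from the F statistic, are narrower than the printed p implies. *KSR1*, the related scaffold, stood at 29.3, 29.4 and 28.3 CPM with guide 1 and 28.8, 27.0 and 29.3 CPM with guide 2, a log2 difference of −0.03 (SE 0.08, 95% interval −0.20 to 0.14). ENSG00000256071, an antisense transcript inside *KSR2*, had 1.97, 2.13 and 2.08 CPM with guide 1, 1.61, 1.90 and 1.23 CPM with guide 2, and 2.17 and 1.67 CPM in NT. Its NT and guide libraries thus overlapped, while those of *KSR2* were far apart. Between the guides, this transcript was lower in every guide 2 library, opposite in direction to *KSR2*. Its log2 difference of −0.39 (SE 0.20) was not called (edgeR unadjusted p = 0.0715).

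Over all genes, the libraries of the guides lay no further apart than replicates of one guide. The correlation of log2 CPM across genes, which are not independent replicates, was 0.9946 to 0.9953 in the 9 pairs of libraries that cross the guides and 0.9942 to 0.9953 in the 6 pairs within a guide. Of 18963 genes tested, 1 was called between the guides at an edgeR adjusted p under 0.05 (0.00527%), lower with guide 2, and 0 were higher. An unadjusted p under 0.05 was reached by 614 genes (3.24%), with 221 higher (1.17%) and 393 lower (2.07%) with guide 2, where 948 would be expected with no difference at all. This count depended on the libraries that gave the spread. It was 827 with the groups compared alone, 916 with the 8 guide and NT libraries, and 428 to 923 when 1 guide library was left out. The number of genes tested can differ in those fits. The shortfall against 948 is therefore no measure of how alike the guides are. Guide 1 against NT gave 1 called gene (0.00527%) and guide 2 against NT gave 2 (0.0105%), the second being *GNPNAT1*. The libraries of the guides did not overlap for 1928 genes (10.2%), of which 946 were higher (4.99%) and 982 lower (5.18%) with guide 2.

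The intervals say how large a difference could have been missed in the fit that shares the spread over all 14 libraries. The 95% interval of the log2 difference had a median half-width of 0.25, and it lay within −1 to 1 for 16964 genes (89.5%). Among the 11276 genes that reached 5 CPM in either guide group, the median half-width was 0.19. For 11148 of these (98.9%) the interval lay wholly within a 1.5-fold difference in either direction. The middle 90% of these genes had log2 differences of −0.14 to 0.13. In this set *GNPNAT1* alone differed by at least 2-fold, and 2 genes differed by at least 1.5-fold, the other being *NDUFS5*, a subunit of respiratory complex I described with the library-specific genes.

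**Figure D2:**
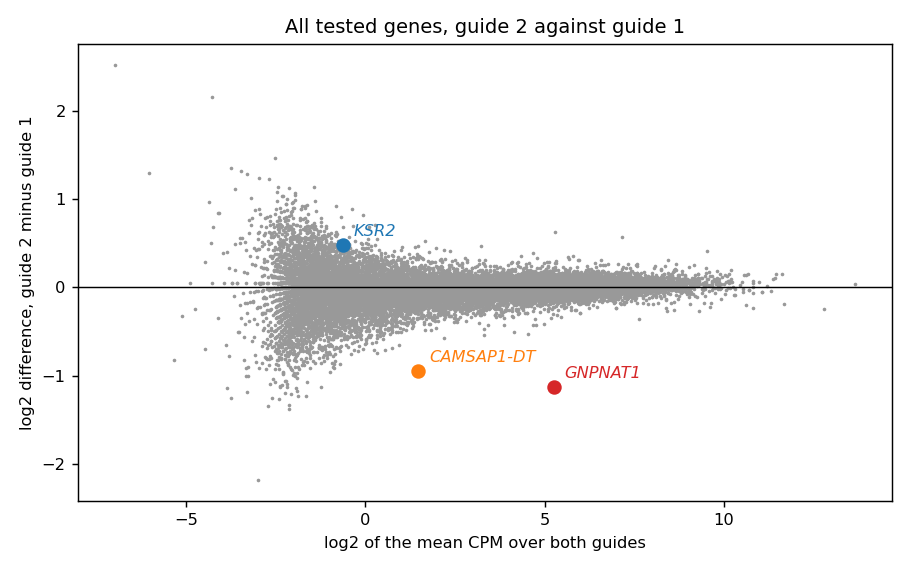
Each point is 1 of 18963 tested genes, placed by the log2 of its mean CPM over both guide groups (horizontal) and its log2 difference, guide 2 minus guide 1 (vertical). *GNPNAT1* at −1.12 stands clear of genes of like abundance, *CAMSAP1-DT* lies at −0.94, and the scatter widens toward scarce genes such as *KSR2*.

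Next to *GNPNAT1* by p-value came *CAMSAP1-DT* (ENSG00000238058; chromosome 9, 135907812 to 135913513, plus strand), a noncoding RNA that starts beside *CAMSAP1* and runs the other way. It stood at 4.01, 3.91 and 3.04 CPM with guide 1 and at 2.41, 1.59 and 1.76 CPM with guide 2, against 3.62 and 4.29 CPM in NT. The guide 2 libraries were again below all guide 1 and NT libraries, but on 61 to 80 counts each. Its log2 difference of −0.94 (SE 0.17) was not called (unadjusted p = 3.83e-05, edgeR adjusted p = 0.363). DESeq2 on all 35794 genes with a count called 2 genes (0.00559%), this one and *GNPNAT1* (DESeq2 adjusted p = 0.0223). DESeq2 on the 18963 genes of the edgeR fit also called both (0.0105%, DESeq2 adjusted p = 0.00523). Across 18 alternative settings that kept the gene, 3 called it, and its log2 difference was −1.12 to −0.83. Against NT it differed by −1.07 with guide 2 (edgeR adjusted p = 0.106) and by −0.12 with guide 1 (edgeR adjusted p = 0.965). Its partner *CAMSAP1*, a protein that binds the minus ends of microtubules, was looked up after these values were seen. *CAMSAP1* stood at 82.0, 77.7 and 77.7 CPM with guide 1 and 85.7, 88.5 and 93.4 CPM with guide 2, a log2 difference of 0.17 (SE 0.06) that was not called (edgeR adjusted p = 1).

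No other gene of at least 5 CPM approached the threshold, since edgeR adjusted p values were 1 for all that follow. The rankings here cover only genes with a symbol and at least 5 CPM in the higher guide group. The lowest unadjusted p among genes lower with guide 2 belonged to *TMEM165*, a Golgi ion transporter needed for normal glycosylation. *TMEM165* stood at 70.3, 65.5 and 72.6 CPM with guide 1 and at 56.1, 58.9 and 55.8 CPM with guide 2, a log2 difference of −0.29 (SE 0.07, unadjusted p = 0.000793). The NT libraries, at 50.9 and 55.9 CPM, lay near guide 2, and the guide 1 libraries were above both groups. *SERINC2* (log2 difference −0.47, SE 0.13), the lysosomal iduronidase *IDUA* (−0.29, SE 0.08), the NF-κB regulator *NFKBID* (−0.34, SE 0.10), the ATP-gated channel *P2RX1* (−0.27, SE 0.08), *VMAC* (−0.31, SE 0.08), *FHIP2B* (−0.22, SE 0.07) and *DUSP8P5* (−0.26, SE 0.08) followed. Among genes higher with guide 2, the proteasome subunit *PSMA3* had the lowest p, at 83.7 to 87.1 CPM with guide 1 and 94.2 to 119.5 CPM with guide 2 (log2 difference 0.31, SE 0.09, unadjusted p = 0.00215). Others were *DPH5-DT* (0.27, SE 0.08), the translocon-associated *SERP1* (0.24, SE 0.07), *CUTA* (0.35, SE 0.11), *C19orf53* (0.36, SE 0.12), *ZNF330* (0.19, SE 0.06) and the nucleolar factors *EBNA1BP2* (0.32, SE 0.11) and *NOL10* (0.22, SE 0.07). *RPL13AP5* (0.47, SE 0.15) and *RPS3AP6* (0.43, SE 0.19) are by name pseudogenes of ribosomal protein genes. Their values, like that of the pseudogene *DUSP8P5*, are uncertain because reads may be shared with the parent gene. The largest differences without overlap further included *H1-4* (0.42) above, and *MELTF-AS1* (−0.50), *TMEM205* (−0.43), *EBPL* (−0.42) and *ARL2* (−0.40) below.

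No gene around *GNPNAT1* was called, and no interval among them reached −1.12. Within 500 kb, 9 tested genes had a median log2 difference of 0 against 0 over all tested genes, a range of −0.09 to 0.20 and 0 calls. *STYX*, the neighbour beyond its 3′ end, stood at 63.6, 65.7 and 65.5 CPM with guide 1 and 60.7, 60.8 and 68.0 CPM with guide 2 (log2 difference −0.04, SE 0.06). *FERMT2*, a kindlin that activates integrins and the next protein-coding gene beyond its start, stood at 79.2 and 79.0 CPM (log2 difference −0.003, SE 0.07). The proteasome subunit *PSMC6* (−0.09, SE 0.09), the ER oxidase *ERO1A* (−0.02, SE 0.06), *DDHD1* (0.02, SE 0.08), *TXNDC16* (0.08, SE 0.08) and *GPR137C* (−0.06, SE 0.10) likewise did not pass. ENSG00000259049, annotated on the opposite strand inside *GNPNAT1* (52775237 to 52777740), was scarce at 0.695 and 0.811 CPM (0.20, SE 0.25), and reads of the 2 genes cannot be told apart where they overlap if the counting ignored strand. For 8 of the 9 neighbours the 95% interval lay within a 1.5-fold difference. Around *KSR2*, 15 tested genes within 500 kb had a median of 0.04, a range of −0.55 to 0.43 and 0 calls, and the lowest and highest differences were in transcripts under 1 CPM. *WSB2* (0.16, SE 0.08), *RFC5* (0.002, SE 0.07), *TAOK3* (0.12, SE 0.08), *PEBP1* (−0.02, SE 0.08), *SUDS3* (0.06, SE 0.06), *FBXO21* (0.04, SE 0.07), *VSIG10* (−0.07, SE 0.09) and *TESC* (0.11, SE 0.08) all lay close to 0.

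The hexosamine pathway was then followed step by step, with each value a log2 difference of guide 2 minus guide 1. Of 16 tested members 1 was called, *GNPNAT1*, and the median was 0.01. *GNPNAT1* was the only gene called among all tested (0.00527%), and the list was chosen with earlier results known. The call in this list was thus given in advance and is no result about the pathway. At the entry, *GFPT1*, the rate-limiting amidotransferase, stood at 204 and 211 CPM with guides 1 and 2 (0.05, SE 0.06), and its scarce relative *GFPT2* at 1.87 and 1.92 CPM (0.04, SE 0.21). After *GNPNAT1*, the mutase *PGM3* stood at 40.0 and 39.5 CPM (−0.02, SE 0.10) and the pyrophosphorylase *UAP1* at 54.1 and 58.3 CPM (0.11, SE 0.06). *NAGK*, the kinase that salvages free N-acetylglucosamine and so joins the pathway after *GNPNAT1*, stood at 43.6 and 42.6 CPM (−0.04, SE 0.09). The deacetylase *AMDHD2* (−0.14, SE 0.12) and the deaminases *GNPDA1* (0.04, SE 0.08) and *GNPDA2* (0.06, SE 0.10), which run in the opposite sense, also did not pass. *OGT*, which adds O-GlcNAc, stood at 616, 652 and 644 CPM with guide 1 and 588, 581 and 606 CPM with guide 2 (−0.11, SE 0.06), and *OGA*, which removes it, at 143 and 137 CPM (−0.06, SE 0.08). Libraries of the guides did not overlap for 5 of the 16 members, against 10.2% of all genes: *GNPNAT1* and *OGT* were lower with guide 2, and *HK1*, *HK2* and *UAP1* were higher. Of these *GNPNAT1* alone was called (unadjusted p for *OGT* = 0.0996). Such a count was not particular to this pathway. Of 26 glycolysis and hypoxia genes, which include *HK2*, 7 were higher and 1 lower without overlap. Of 17 heat shock genes 5 were higher and 0 lower, and of 24 mitotic genes 1 was higher and 0 lower. The hexokinases *HK1* (0.16, SE 0.09) and *HK2* (0.15, SE 0.08) and the isomerase *GPI* (0.05, SE 0.16) did not pass either. Apart from *GNPNAT1*, the interval reached beyond 1.5-fold in 1 member, the scarce *RENBP* (−0.25, SE 0.25).

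**Figure D3:**
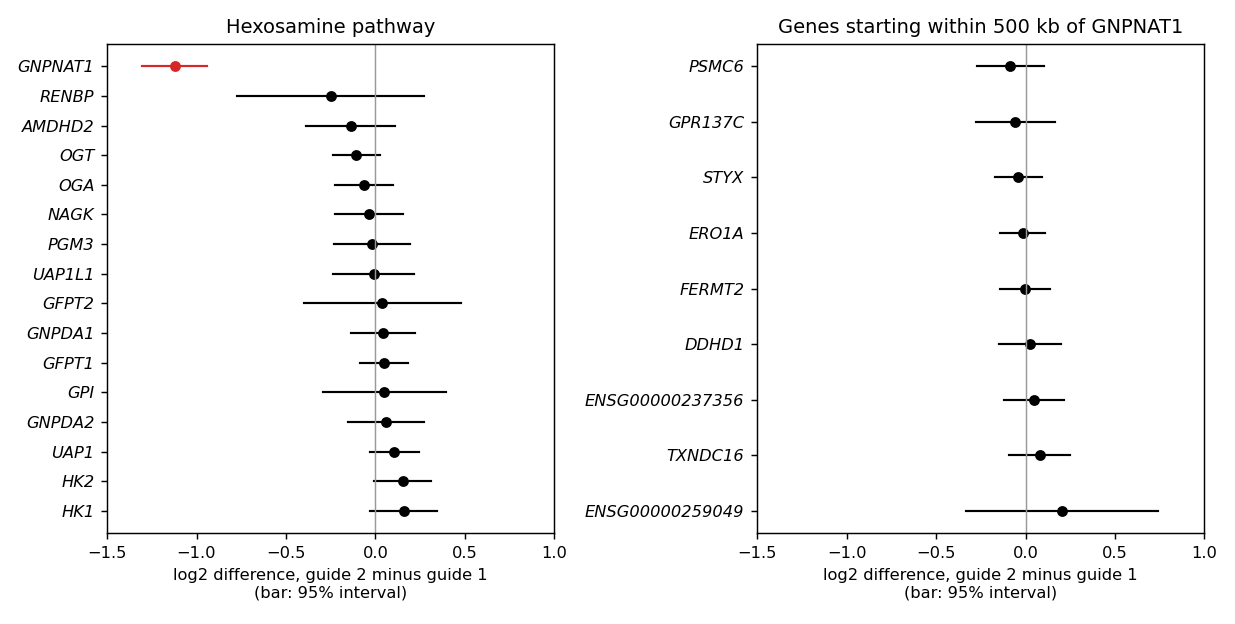
Log2 difference, guide 2 minus guide 1 (horizontal), with its 95% interval for 16 genes of the hexosamine pathway (left) and 9 genes that start within 500 kb of *GNPNAT1* (right). *GNPNAT1* (red) lies at −1.12, while the intervals of all other genes in the panels include 0.

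Genes that use UDP-N-acetylglucosamine or report on protein folding were next. Of 33 tested genes of N-glycan and GPI anchor assembly 0 were called by edgeR, and the median was 0.02. All 33 intervals lay within a 1.5-fold difference. An unadjusted p under 0.05 was reached by 1 of the 33, near the 3.24% of all tested genes. The mannosyltransferase *ALG3* had the lowest p (−0.24, SE 0.11, unadjusted p = 0.049), followed by the glucosyltransferase *ALG6* (−0.14, SE 0.07). *DPAGT1* (0.03, SE 0.10), which transfers N-acetylglucosamine phosphate to dolichol as the opening step, and *MGAT1* (0.03, SE 0.10), which adds N-acetylglucosamine in the Golgi, had overlapping libraries. Of 20 tested genes of the unfolded protein response 0 were called, with a median of 0.03 and all 20 intervals within 1.5-fold. Of these 0 had an unadjusted p under 0.05, beside 3.24% of all tested genes. Without overlap of the libraries, 4 of the 20 were higher and 0 lower with guide 2, beside 4.99% and 5.18% of all tested genes. The ER chaperone *HSPA5* stood at 1512, 1502 and 1578 CPM with guide 1 and 1686, 1693 and 1726 CPM with guide 2 (0.15, SE 0.07, unadjusted p = 0.0506). Its libraries did not overlap, but NT at 1650 and 1660 CPM lay between the groups. *SDF2L1*, another ER chaperone component, differed by 0.20 (SE 0.11).

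No gene of the cascade that KSR2 serves, or of its transcriptional outputs, was called between the guides. Of 22 tested genes of the RAS, RAF, MEK and ERK cascade 0 were called by edgeR, and the median was 0.03. An unadjusted p under 0.05 was reached by 1 gene of the 22, beside 3.24% of all tested genes. That gene was *MAP2K2*, which encodes MEK2, at 131, 129 and 129 CPM with guide 1 and 141, 143 and 145 CPM with guide 2 (0.14, SE 0.06, unadjusted p = 0.0352). NT stood above both, at 164 and 154 CPM. *RASA1* (0.14, SE 0.08), *GRB2* (0.10, SE 0.08), *IQGAP1* (0.08, SE 0.07), *NF1* (0.07, SE 0.07) and the scarce *CNKSR1* (−0.44, SE 0.24) followed. Of the 22, 21 had an interval within 1.5-fold. Of 15 tested ERK output and feedback genes 0 were called by edgeR, and the median was 0.01. Here too 1 gene had an unadjusted p under 0.05, beside the same 3.24% of all tested genes. The phosphatase *DUSP5* had the lowest p (0.30, SE 0.14, unadjusted p = 0.0454) at 2.02 and 2.48 CPM. The feedback inhibitor *SPRY2* stood at 23.2, 23.4 and 25.6 CPM with guide 1 and 25.8, 27.6 and 27.2 CPM with guide 2 (0.16, SE 0.08), below NT at 28.1 and 30.1 CPM. *SPRY1* (0.16, SE 0.10), *SPRY4* (−0.15, SE 0.14), *SPRED1* (0.08, SE 0.07), *DUSP7* (−0.08, SE 0.09), *IER3* (−0.17, SE 0.15) and *MAFF* (−0.09, SE 0.12) had overlapping libraries.

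Of 21 tested immediate early genes, which follow ERK activity within minutes, 0 were called by edgeR. At an unadjusted p under 0.05, 2 were higher with guide 2 and 1 was lower, beside 1.17% and 2.07% of all tested genes, and the median was 0.05. *EGR1* stood at 15.6, 15.6 and 15.1 CPM with guide 1 and at 10.9, 13.2 and 13.1 CPM with guide 2 (−0.31, SE 0.10, unadjusted p = 0.00657), with NT at 17.1 and 15.3 CPM. *IER5* lay the other way, at 29.1, 31.2 and 29.6 CPM with guide 1 and 39.5, 35.7 and 34.6 CPM with guide 2 (0.29, SE 0.11). In the TAL1 circuit 0 of 16 were called by edgeR, 0 had an unadjusted p under 0.05 and the median was 0.05, with *LMO1* (0.23, SE 0.12) and *ETS1* (0.11, SE 0.06) at the lowest p. *TAL1* itself differed by 0.04 (SE 0.07).

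Lists that bear on DNA cutting, foreign nucleic acid and metabolism gave no call in the filtered edgeR fit either. DESeq2 and limma-voom called no list member other than *GNPNAT1*, while edgeR without the low-count filter also called *TRBC2* of the T lineage and the mitochondrially encoded *MT-ND4L*. The counts at an unadjusted p under 0.05 that follow stand beside 3.24% of all tested genes. Of 22 tested p53 target genes 0 had an unadjusted p under 0.05 and all 22 intervals lay within 1.5-fold, with *SESN1* (0.12, SE 0.07) and *BTG2* (−0.17, SE 0.11) at the lowest p. Loss of p53 function is a known trait of this line. Of 26 tested interferon response genes 1 had an unadjusted p under 0.05 and the median was −0.01, with *IFI44* at 1.49 and 1.02 CPM (−0.57, SE 0.21) and *IFI27* (−0.23, SE 0.12) at the lowest p. Of 26 tested glycolysis and hypoxia genes (median 0.07) 1 had an unadjusted p under 0.05. The enolase *ENO1* stood at 563, 513 and 509 CPM with guide 1 and at 650, 621 and 620 CPM with guide 2 (0.25, SE 0.09, unadjusted p = 0.0123), both below NT at 717 and 738 CPM. Of 17 tested heat shock genes (median 0.08) 2 had an unadjusted p under 0.05, *HSP90AB1* (0.22, SE 0.08) and *HSPD1* (0.14, SE 0.07). Of 24 tested DNA replication genes (median 0.04) 1 had an unadjusted p under 0.05, the clamp loader subunit *RFC1* at 134 and 157 CPM (0.23, SE 0.08), followed by *RFC4* (0.14, SE 0.07). None of 24 mitotic genes, 24 ATF4 targets, 23 cholesterol genes and 20 T-lineage genes did, with medians of 0.07, 0.06, 0 and 0.03. Lowest in p among these were the cyclin *CCNB1* (0.19, SE 0.10) and the kinase *AURKB* (0.11, SE 0.08), *CEBPG* (0.12, SE 0.07) and *SHMT2* (0.19, SE 0.12), *HSD17B7* (−0.14, SE 0.08) and *HMGCS1* (−0.10, SE 0.07), and *TRBC2* (−0.43, SE 0.21) and *RAG1* (0.16, SE 0.08). The 13 mitochondrially encoded protein genes had a median of −0.07 and 0 with an unadjusted p under 0.05, but half-widths up to 1.52 and 1 interval within 1.5-fold. The mitochondrial share varied most among the guide 2 libraries, and its part in these values was not tested.

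**Figure D4:**
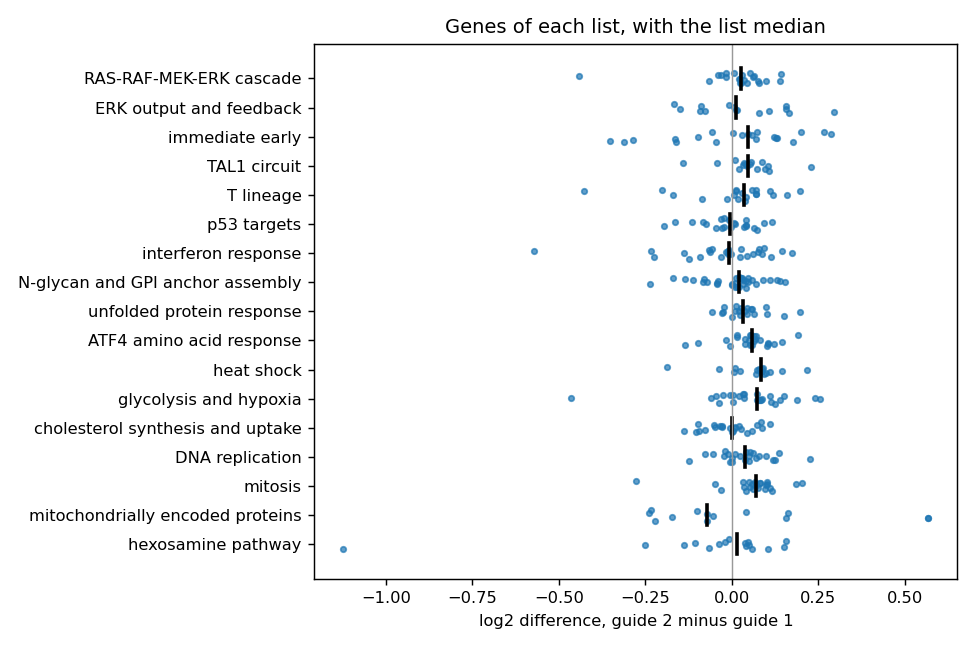
Log2 difference, guide 2 minus guide 1 (horizontal), of every tested gene in 17 lists (rows, with points spread vertically for sight), where the black bar is the list median. Medians lie between −0.07 and 0.08, and *GNPNAT1* at −1.12 is the lowest point.

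More genes were called when scarce genes were kept in the fit. With every gene that had a count, 13 passed the edgeR test (0.0363%), 3 of them higher and 10 lower with guide 2. For 5 of the 13 the libraries of the guides did not overlap, among them *GNPNAT1*, *CAMSAP1-DT*, *EBPL* and *MELTF-AS1*. Over the genes tested with the filter this share was 10.2%. Because the 13 were picked by p in these same libraries, their share is no separate evidence for the calls. *EBPL*, a relative of the sterol isomerase EBP, stood at 39.3, 35.2 and 34.4 CPM with guide 1 and 30.1, 29.9 and 21.7 CPM with guide 2, against 39.0 and 34.7 CPM in NT. *MELTF-AS1*, a noncoding RNA antisense to *MELTF*, stood at 21.97, 19.9 and 20.3 CPM with guide 1 and 19.1, 8.42 and 16.4 CPM with guide 2, with guide 2 replicate 2 the lowest. Several of the others turned on 1 or 2 libraries. *IL2RG*, the common gamma chain of cytokine receptors, stood at 2.10 and 1.88 CPM in guide 2 replicates 1 and 2 but at 6.91 CPM in replicate 3, with guide 1 at 5.36, 5.75 and 5.60 CPM. *HCST*, the DAP10 signalling adaptor, showed the same split, at 5.60 and 6.21 CPM against 12.3 CPM, with guide 1 at 10.4 to 13.96 CPM. Without guide 2 replicate 3 the filtered fit called *HCST* (log2 difference −0.997, edgeR adjusted p = 0.0481). *NDUFS5* stood at 15.2 CPM in guide 1 replicate 3 and at 29.9 and 46.7 CPM in the other guide 1 libraries, against 45.2 to 49.7 CPM with guide 2. The ribosomal protein gene *RPS28* stood at 75.9 CPM in guide 2 replicate 2 and at 212 to 239 CPM in the other 5 libraries. *FAU*, a fusion of a ubiquitin-like and a ribosomal protein, stood at 17.0 CPM in guide 1 replicate 2 and at 33.5 and 31.7 CPM in the others, with guide 2 at 18.5 to 19.4 CPM and NT at 31.8 and 14.3 CPM. High and low libraries of *FAU* thus occurred within NT and within guide 1. *MT-ND4L*, which overlaps *MT-ND4*, ran from 64.6 to 148 CPM with guide 1 and from 105 to 234 CPM with guide 2. *TRBC2*, near-identical to *TRBC1* and so uncertain in its counting, and *MED30* also overlapped between the guides. In the fit with the filter the edgeR adjusted p of these genes, *GNPNAT1* and *CAMSAP1-DT* apart, was 1.

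**Figure D5:**
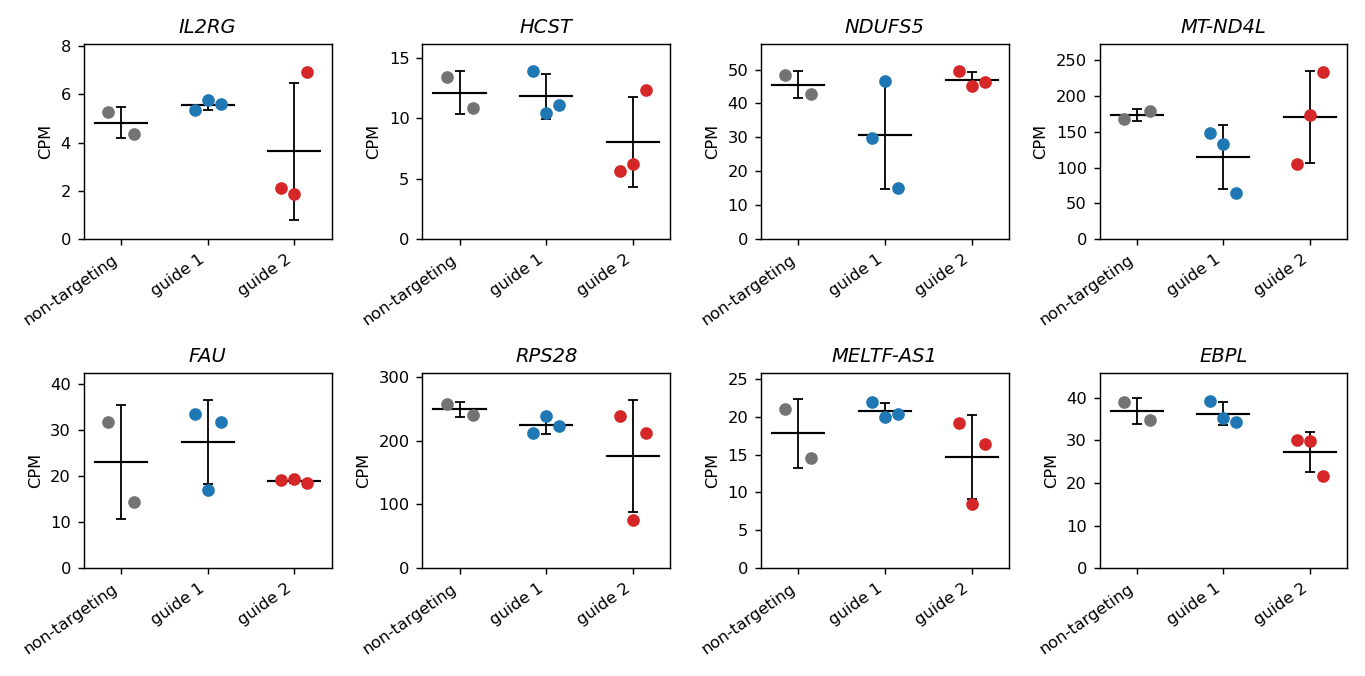
Levels in CPM (vertical) of 8 genes called between the guides without the low-count filter, by library in NT, guide 1 and guide 2, where points are libraries, the wide bar is the mean and the error bar the SD. *IL2RG* and *HCST* have 1 guide 2 library level with guide 1, *NDUFS5* has low guide 1 libraries, *RPS28* has 1 low guide 2 library, and only *MELTF-AS1* and *EBPL* of the 8 separate the guides.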

How the data were processed

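Polyadenylated RNA of 14 Jurkat libraries was sequenced, and the authors deposited raw counts for each Ensembl gene. The submitters' processing notes list STAR 2.7.11b, DESeq2 1.42.1 and GRCh38. The program that counted the reads, its use of strand and its annotation were not given in the sources used here. Positions are from GENCODE release 29 (GRCh38), and start windows are from RefSeq (3 of 3 genes matched).

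Of 61541 genes, 18963 passed filterByExpr and held at least 99.93% of each library's counts. edgeR 4.0.16 (R 4.3.3) fitted TMM-scaled counts with 1 mean per group over all 14 libraries (common biological coefficient of variation 8.6%), and the quasi-likelihood test was adjusted by Benjamini-Hochberg over all tested genes at 0.05. SEs and 95% intervals come from the F statistic, and for 297 genes (1.57%, 1 of them of at least 5 CPM) edgeR's bound at counting error put p more than 5% above that statistic's. The 3 comparisons were guide 2 with guide 1 and each guide with NT. The procedure was tested on simulated data.

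Named genes are *KSR2*, *KSR1*, *GNPNAT1*, called genes and neighbours within 500 kb. Added to these were the 10 lowest p and the 6 largest differences without overlap per direction, among genes with a symbol and at least 5 CPM. Genes with a symbol and at least 1 CPM that DESeq2 or the fit without a filter called were also named. From each list came the 2 lowest p (8 for the hexosamine, cascade and ERK output lists). The other hexosamine genes, *CAMSAP1*, *TAL1*, *DPAGT1*, *MGAT1* and *CD79A* were added after their values were seen. Some genes that the rule names are not reported here. Members and lists were chosen with earlier results of these data known. Alternatives tried: upper-quartile and RLE factors, no filter, 5 CPM in 3 libraries, DESeq2 1.42.0, limma-voom (limma 3.58.1), fits of fewer groups, a replicate block, each library left out, and stricter thresholds. A filter of 10 counts in all, a robust spread estimate and DESeq2 on the filtered genes were added after seeing the data. No replicate pair within NT and the guides agreed within sampling noise (chi-square over its degrees of freedom, 7.53 to 26.0), so none was merged as one library deposited more than once; this does not show separate cultures.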

Additional observations from a re-analysis of the deposited data

Results flagged for a closer look

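*GNPNAT1* is listed here because the effects of the guides against their shared NT control differed by a test of the difference itself. That difference, guide 2 minus guide 1, was −1.12 on the log2 scale (edgeR adjusted p = 6.40e-06), lower in 3 of 3 guide 2 libraries. No group had enough libraries to look for a single deviating one by a gap test, since each held 2 or 3.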

How the results depend on the processing

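*GNPNAT1* kept its direction and its call in all 19 alternatives, with log2 differences of −1.20 to −1.08 and adjusted p of 3.81e-30 to 0.00177. Leaving out 1 library at a time gave −1.20 to −1.08. *KSR2* was called in 0 of 19, at 0.38 to 0.66. The count of genes called between the guides was 1 in most settings, 13 without a low-count filter and 2 with DESeq2, which was run without that filter. DESeq2 on the filtered genes, added after seeing the data, also gave 2, and 9 for guide 1 and 6 for guide 2 against NT. Leaving out 1 library gave 1 to 2, with 2 genes without guide 2 replicate 3. Without the filter, the test had 322146 degrees of freedom in place of 16.6, so that genes had almost no spread of their own. With at least 10 counts in all, chosen after seeing the data, it had 21.5 and called 1 gene. For guide 1 against NT, 1 gene became 35 without the filter, 8 with DESeq2 and 1 to 5 when 1 library was left out (5 without NT replicate 1, 3 without NT replicate 2). Where 1 NT library was left, it was assumed to vary like the other groups. For guide 2 against NT, 2 became 35, 5 and 2 to 4 (4 without NT replicate 1).

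Replicate numbers did not pair the libraries: same-numbered libraries of the guides deviated with r = −0.02, 0.018 and −0.012 across genes. With the replicate number as a block, *GNPNAT1* alone was called between the guides, at −1.13 with 14 libraries (adjusted p = 0.000152) and with 6 (adjusted p = 0.00177). The block gave 2 for guide 1 and 3 for guide 2 against NT. The mitochondrial share, guide 2 minus guide 1, was −0.238 percentage points, and −0.6985 to 0.0785 when 1 library was left out, where leaving out guide 2 replicate 1 turned its sign. Of the values of single named genes under the alternatives, 2131 stayed on their side of the threshold and 15 became called. Reversal was counted only for values called in either fit, and 0 reversed. Changes of direction in uncalled values were not counted. Depth limits scarce genes: *KSR2* rested on 17 to 34 counts per guide library.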
